A study of Mus musculus with 8 samples.

Results

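Cluster 7 is 1 of 7 populations of bone marrow stromal cells that were sorted with antibodies and sequenced in bulk, and it was set against the other 6 sorted populations, clusters 1 to 6. For every population the labels give wild-type C57BL/6J mice of 6 weeks, which the methods name C57BL/6JJcl, and they give no treatment and no other difference between the groups than the gate. The gate of cluster 7, as the gating plots of the study show it, took cells without CD31, CD45 and Ter119, which mark endothelium, blood cells and the red lineage, that were negative for CD54 (Icam1), positive for Sca-1 (Ly6a) and negative for CD24 and Ly-6C. The gates of the others were CD24-negative with Sca-1 and CD39 for cluster 1, no Ly-6C, CD39 or CD24 for cluster 2, Ly-6C and CD24 without CD39 or CD54 for cluster 3, CD54 without Ly-6C or CD24 for cluster 4, CD54 without CD121b, CD24 or Ly-6C for cluster 5, and CD24 without Sca-1 or CD39 for cluster 6. There was 1 library for each population and no replicate, so no test between populations was possible, no p-value is given, and each difference below is one between libraries. Of the 49315 genes counted, 13395 had 50 or more counts in cluster 7, and these are the genes described. At that limit, 43 genes had 50 counts and 41 had 49.

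The cluster 7 library held 33238133 counts, the most of the 7. Lars2, mmu-mir-689-2 and ENSMUSG00000098178, an Rn18s-rs5 locus, took 0.274% of them, and after these 3 loci were dropped 33147014 counts remained. The same loci took 34.8% of counts in cluster 5 and 10.4% in cluster 2, and between 1.01% and 1.91% in the other 4 libraries. The totals kept ran from 8364075 in cluster 5 to 32220730 in cluster 4 among the other populations. Levels are given as RPKM, reads per kilobase of gene length scaled to the kept total of each library. Differences are of log2(RPKM + 1), which understates the change of genes near 1 RPKM, and intervals are exact 95% Clopper-Pearson intervals that cover counting error only.

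The stroma of bone marrow is the supporting tissue of blood formation. Perivascular reticular cells express the leptin receptor and release CXCL12 and stem cell factor, which hold blood stem cells in place, while osteoblasts lay down bone matrix and express osteocalcin. Fibroblast-like cells around larger vessels carry Sca-1 and secrete collagens, complement components and small leucine-rich proteoglycans. Neutrophils and their precursors fill much of the marrow and express granule proteins such as lactoferrin, and B cells and plasma cells there transcribe immunoglobulin genes.

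Against all 6 other clusters at once, 70 of the 13395 genes (0.523%) were more than 2-fold higher in cluster 7 than in the highest of them, and 4 (0.0299%) were more than 2-fold lower than in the lowest. Among the 70 were receptors, cytokines and granule enzymes of myeloid cells (Cxcr2, Osm, Il1a, Ccr1, Mmp8), immunoglobulin segments (Igkv2-112, Igkv12-41), and the matrix proteins periostin (Postn) and thrombospondin 2 (Thbs2). With other scaling factors the 70 became 28 (TMM) or 23 (DESeq2 size factors), and without cluster 6 they became 129. The gene just inside the limit was ENSMUSG00000095028, at 1.00 above the highest, and the gene just outside was Lyz2, at 0.996. Against the median of the other 6, 547 genes (4.08%) were more than 2-fold higher and 212 (1.58%) lower. Lists of osteoblast, skeletal muscle, ribosomal protein and mitochondrially encoded genes had medians below that of all genes. The median difference of all 13395 genes to the median cluster was 0.14 on the log2 scale, and cluster 7 was the highest of the 7 libraries in 3228 genes (24.1%) and the lowest in 561 (4.19%). The share of genes highest in cluster 7 was 17.1% with DESeq2 size factors, 28.9% with all loci kept and 9.18% with no count minimum, and the median difference was then 0.08, 0.21 and 0.

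**Figure D1:**
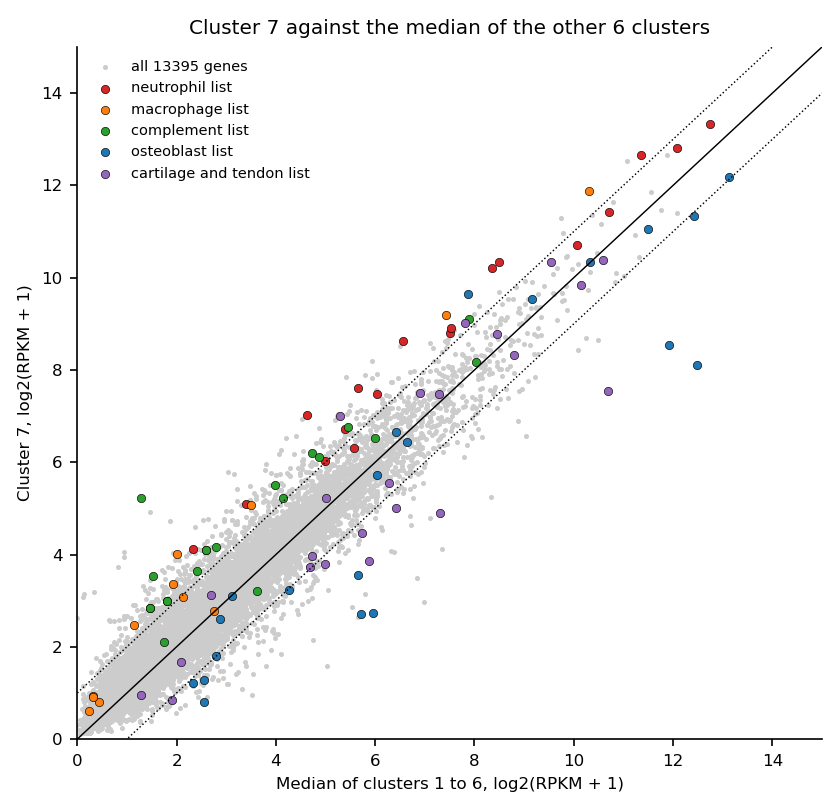
Each point is 1 of the genes described, with log2(RPKM + 1) in the median of clusters 1 to 6 on the x axis and in cluster 7 on the y axis. The solid line marks equal levels, the dotted lines 2-fold, and the colours 5 gene lists, of which the 18 neutrophil and 15 macrophage genes all lie above the solid line and 17 of 21 osteoblast genes below it.

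The starts of 4 of the genes that stood above every other cluster, Mmp8, Ltf, Adam8 and Postn, are shown because 3 are expressed by myeloid cells and 1 by stroma. All 4 are among the genes with a C/EBP match counted below, so they do not stand for the 70. Each window is the 250 bases before an annotated start in RefSeq, of which Postn has 2, on GRCm38.p6, read 5′ to 3′ on the strand of the gene. Capitals mark GAGGAAGT, a core site of the myeloid factor PU.1, or TTGCNNAA, a site of the C/EBP factors, on either strand, where N is any base. The windows are chr9:7558179-7558428 on the + strand for Mmp8, chr9:111019042-111019291 on the + strand for Ltf, chr7:139992563-139992812 on the - strand for Adam8 and chr3:54360857-54361106 and chr3:54359017-54359266 on the + strand for Postn, the last of which holds no match.
Mmp8: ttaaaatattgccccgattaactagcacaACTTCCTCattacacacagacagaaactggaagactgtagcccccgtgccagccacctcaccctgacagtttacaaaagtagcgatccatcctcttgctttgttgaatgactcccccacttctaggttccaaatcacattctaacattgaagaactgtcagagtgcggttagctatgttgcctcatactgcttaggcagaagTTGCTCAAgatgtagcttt
Ltf: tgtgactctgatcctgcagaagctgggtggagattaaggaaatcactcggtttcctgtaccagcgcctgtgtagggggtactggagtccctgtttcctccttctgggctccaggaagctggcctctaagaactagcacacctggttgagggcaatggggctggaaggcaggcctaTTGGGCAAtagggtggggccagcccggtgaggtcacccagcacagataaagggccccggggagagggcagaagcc
Adam8: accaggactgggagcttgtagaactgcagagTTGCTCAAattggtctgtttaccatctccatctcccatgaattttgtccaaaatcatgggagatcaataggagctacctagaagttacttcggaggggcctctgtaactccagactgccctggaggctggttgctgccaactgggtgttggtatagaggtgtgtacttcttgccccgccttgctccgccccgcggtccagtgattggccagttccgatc
Postn: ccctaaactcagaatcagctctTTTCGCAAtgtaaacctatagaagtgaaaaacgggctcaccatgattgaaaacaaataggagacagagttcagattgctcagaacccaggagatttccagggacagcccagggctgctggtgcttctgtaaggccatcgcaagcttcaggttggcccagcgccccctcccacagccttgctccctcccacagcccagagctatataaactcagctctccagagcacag
Postn, other start: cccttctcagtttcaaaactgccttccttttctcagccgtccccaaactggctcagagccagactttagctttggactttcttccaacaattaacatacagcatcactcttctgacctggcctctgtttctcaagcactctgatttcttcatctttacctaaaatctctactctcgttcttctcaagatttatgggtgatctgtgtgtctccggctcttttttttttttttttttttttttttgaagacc

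The RefSeq table held a start for 45 of the 70 genes. TTGCNNAA (or TTNNGCAA) occurred in 9 of these 45, against 10.8% of the 27025 genes in the table, and GAGGAAGT (or ACTTCCTC) in 2 of 45, against 2.79%. An NF-kB site, with 1 free base, occurred in none of the 45, against 0.414% of all genes. In the Mmp8 window the PU.1 letters began 221 bases before the start and the C/EBP letters 19 bases before it. A match of letters in these windows is a description and was not tied to binding of any factor.

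The transcripts of the sorting markers did not all follow the gate. Ly6a, the gene of Sca-1, stood at 226 RPKM in cluster 7, against 601, 87.4, 946, 435, 134 and 5.05 RPKM in clusters 1 to 6. Clusters 1, 3 and 4 were thus higher, and cluster 7 was at 0.239 (interval 0.234 to 0.245) of the level in cluster 3. Icam1, the gene of CD54, was 150 RPKM although the gate took CD54-negative cells, and 239 RPKM was the level in cluster 4, which like cluster 5 was sorted as CD54-positive. In clusters 1, 2, 3, 5 and 6 Icam1 was 75.4, 15.1, 11.6, 68.3 and 19.9 RPKM, so cluster 7 held the second highest level of the 7. Cd24a was 72.4 RPKM, below the 139 to 141 RPKM of clusters 2 and 6 and the 120 RPKM of cluster 5, and above the other 3. Entpd1, the gene of CD39, was highest in cluster 7, at 13.9 RPKM and 0.62 above the next highest on the log2 scale. The cluster 7 gate given above does not use CD39, while cluster 1 was sorted with it.

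Rgcc and Rgs5, upregulated in cluster 7 in the study's single-cell data, were within 2-fold of the median cluster in these bulk libraries. The same held for Stat3 and Trps1. The study names those for cluster 7 from scores of each factor's predicted target genes, a measure unlike transcript level. Rgcc, a cell cycle regulator, was 511 RPKM, against 339 to 942 RPKM in the others. The Ly-6C antigen has a pair of genes, and these parted. Ly6c1 stood at 53.9 RPKM in cluster 7, between the 416 RPKM of cluster 3 and the 6.53 RPKM of cluster 6. Ly6c2, which monocytes and neutrophils express, was highest in cluster 7, at 116 RPKM against 37.5 to 84.2 RPKM in the others. Ptprc, the gene of CD45, was also highest in cluster 7 although CD45-positive cells were gated out. It measured 9.28 RPKM, against 2.97, 2.87, 1.72, 2.79, 2.76 and 4.07 RPKM in clusters 1 to 6, which is 2.28-fold (interval 2.17 to 2.39) above cluster 6. Il1r2, the gene of CD121b, was 178 RPKM in cluster 7 and 118 RPKM in cluster 5, the next highest. Pdgfra, a general marker of stromal fibroblasts, was 26.5 RPKM, next to 28.6 RPKM in cluster 1 and above the other 5. In bulk libraries such as these, fewer cells of a type and less RNA per cell cannot be told apart.

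Lepr, the leptin receptor that marks perivascular reticular cells, was 12.4 RPKM in cluster 7. It was 3.57, 2.88, 4.63, 11.04, 7.11 and 3.32 RPKM in clusters 1 to 6. Clusters 7 and 4 were close together and above the rest, with a ratio of 1.13 (interval 1.07 to 1.19), and nothing is known of the spread between libraries of either. Of 15 niche factors, 14 were described and 4 stood over 2-fold above the median cluster (4.08% of all genes did), none of them over 2-fold above every other. The list as a whole was not raised, with a median of 0.12 beside 0.14 for all genes, and 8 members above the median cluster and 6 below. The 4 past 2-fold were Lepr, the chemokine Cxcl12, the adhesion molecule Vcam1 and Tnfsf11, the osteoclast-forming cytokine RANKL. Cxcl12 was 48.6 RPKM, against 141 RPKM in cluster 4 and 64.4 RPKM in cluster 5, and Tnfsf11 was 15.3 RPKM, against 8.87 RPKM in cluster 4 as the next highest. Kitl, stem cell factor, was 3.73 RPKM in cluster 7 and lay inside the 0.99 to 5.64 RPKM of the others.

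Of the 70 genes above every other cluster, 9 were on the neutrophil, macrophage, dendritic cell or blood progenitor lists. Cxcr2, a chemokine receptor of neutrophils, was 16.5 RPKM in cluster 7 and 3.26, 3.49, 1.83, 5.21, 4.63 and 4.62 RPKM in clusters 1 to 6. Cluster 7 was above the range of the other 6 libraries, as it was for 24.1% of all genes, and Cxcr2 was picked for this difference. Its level was 3.16-fold (interval 2.86 to 3.50) above that of cluster 4, the next highest. Osm, oncostatin M, a cytokine of the IL-6 family made by myeloid cells, was 94.5 RPKM, against 15.6, 18.3, 6.996, 33.5, 21.9 and 26.0 RPKM. The ratio to cluster 4 was 2.82 (interval 2.69 to 2.95).

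The interleukin 1 cytokines were also highest in cluster 7. Il1b was 188 RPKM in cluster 7 and 64.3, 47.9, 20.6, 78.6, 75.2 and 63.8 RPKM in clusters 1 to 6, a ratio of 2.39 (interval 2.31 to 2.47) to cluster 4. Il1a was 11.3 RPKM, against 1.60 to 3.47 RPKM in the others. Ccr1, a receptor for inflammatory chemokines, was 55.8 RPKM, against 4.22 RPKM in cluster 3 and 20.2 RPKM in cluster 6 at the ends of the range. Csf1r, the receptor that monocytes and macrophages need, was 15.1 RPKM, against 2.77, 2.02, 2.53, 4.44, 3.28 and 5.63 RPKM. Cluster 3 was the lowest of the 7 for Cxcr2, Osm, Il1a, Il1b and Ccr1, and cluster 2 for Csf1r. Exons of Csf1r overlap Hmgxb3 on the other strand, which had 738 counts in cluster 7 beside 2443 for Csf1r, and strand use in the counting is not given in the sources used here.

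The granule and secreted proteins were more abundant. Mmp8, neutrophil collagenase, was 193 RPKM in cluster 7 and 32.5, 40.3, 16.7, 58.5, 77.2 and 68.7 RPKM in clusters 1 to 6, a ratio of 2.50 (interval 2.38 to 2.64) to cluster 5. Adam8, a surface metalloprotease of leukocytes, was 90.8 RPKM against 8.39 to 39.5 RPKM. Ltf, lactoferrin of the specific granules, was 1184 RPKM, against 150, 195, 144, 494, 460 and 563 RPKM. Cd177, a neutrophil surface protein, was 229 RPKM and 101 RPKM in cluster 6. Ltf, Cd177, Itgb2 and C5ar1 were named after their values were seen. Itgb2, the shared chain of leukocyte integrins, was 75.9 RPKM against 7.94 to 36.3 RPKM, and C5ar1, the receptor for the complement fragment C5a, was 61.3 RPKM against 4.83 to 26.5 RPKM. Under all 3 scalings, Cxcr2, Osm, Il1a, Il1b, Ccr1 and Mmp8 passed the 2-fold limit against every other cluster, and Csf1r, Adam8, Ltf, Cd177, Itgb2 and C5ar1 did not.

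**Figure D2:**
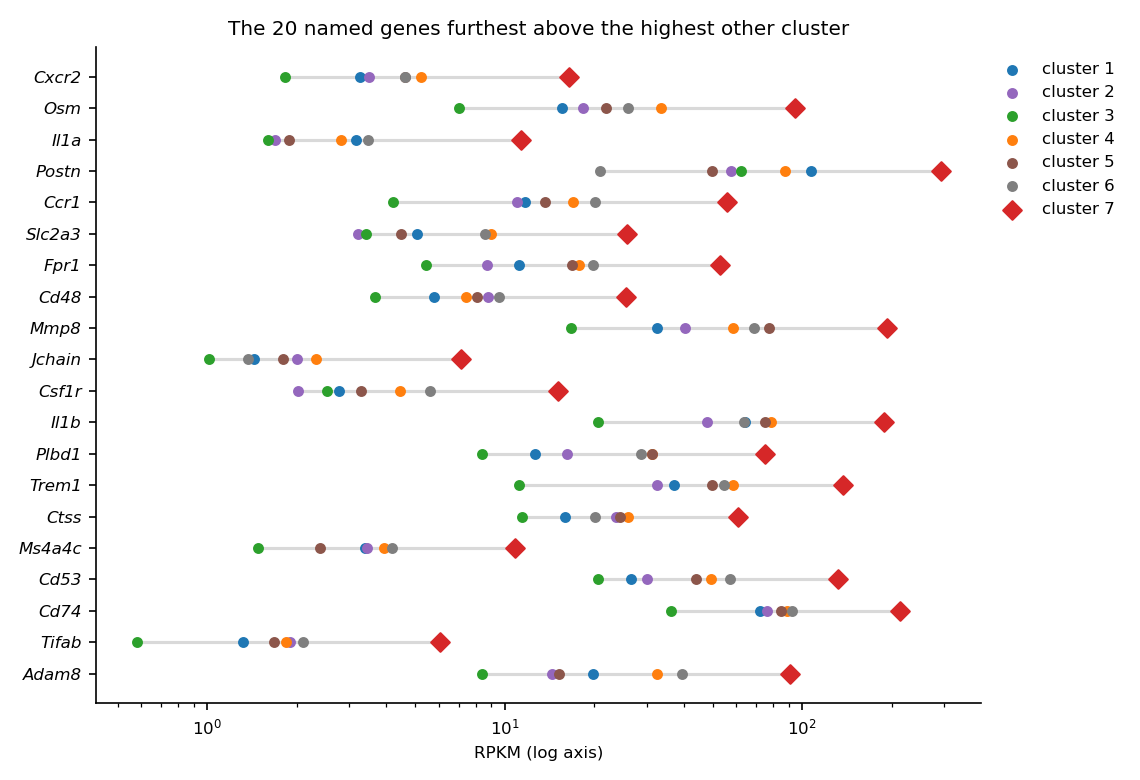
The 20 genes furthest above the highest other cluster once immunoglobulin segments, small RNAs, predicted genes, histones and genes without a symbol or under 2 RPKM are left out, with 1 point per library and RPKM on a log axis. The cluster 7 point lies to the right of all others in each row, and clusters 4, 5 and 6 hold most of the next highest values.

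Not every neutrophil gene had this order. All 18 genes of a neutrophil list were described. Of these, 14 were highest in cluster 7, 13 over 2-fold above the median cluster and 3 over 2-fold above every other cluster. The same held for 24.1%, 4.08% and 0.523% of all genes. The median difference of the list to the median cluster was 1.36, beside 0.14 for all genes. The most abundant members were higher in cluster 5. S100a9, part of calprotectin, was 10358 RPKM in cluster 7 and 16929 RPKM in cluster 5, S100a8 was 7170 and 12088 RPKM, and Camp, the precursor of cathelicidin, 2764 and 4741 RPKM. The summed RPKM of the list was 15881, 19559, 11832, 19381, 42969, 17108 and 32991 in clusters 1 to 7, and no member was at 0 in cluster 7. As a share of the kept counts the list took 3.22% in cluster 7 and 3.26% in cluster 5, and between 0.919% and 1.73% in the other 5.

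Macrophage and dendritic cell genes were also higher in cluster 7. Of 17 macrophage genes, Marco and Siglec1 had under 50 counts. Of the 15 described, 10 were highest in cluster 7, 9 over 2-fold above the median cluster and 2 over 2-fold above every other. Over all genes these shares were 24.1%, 4.08% and 0.523%. Lyz2, lysozyme M and the most abundant of the list, was 3749 RPKM in cluster 7 and 845, 1045, 538, 1879, 1866 and 1487 RPKM in clusters 1 to 6, the gene just short of the limit named above. The summed RPKM of the list was 1009, 1213, 624, 2238, 2145, 1759 and 4443. Of 9 dendritic cell genes described, 8 were highest in cluster 7 and 3 over 2-fold above every other cluster (Cd74, H2-Aa and H2-Eb1, none of them with TMM factors or DESeq2 size factors), with Clec9a and Xcr1 under 50 counts. Cd74, the invariant chain of class II antigen presentation, was 213 RPKM against 36.4 to 92.7 RPKM, and H2-Aa, a class II chain, 35.9 RPKM against 8.36 to 16.1 RPKM. Red cell and endothelial genes did not follow this order. Of 15 erythroid genes described, none was highest in cluster 7, and Hbb-b1, a beta globin and the most abundant, was 2846 RPKM beside 28419 RPKM in cluster 5. Of 15 endothelial genes described, none was past 2-fold against the median cluster, and their summed level was 38.1 RPKM. The part that blood cell transcripts had in the differences between clusters was not tested.

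**Figure D3:**
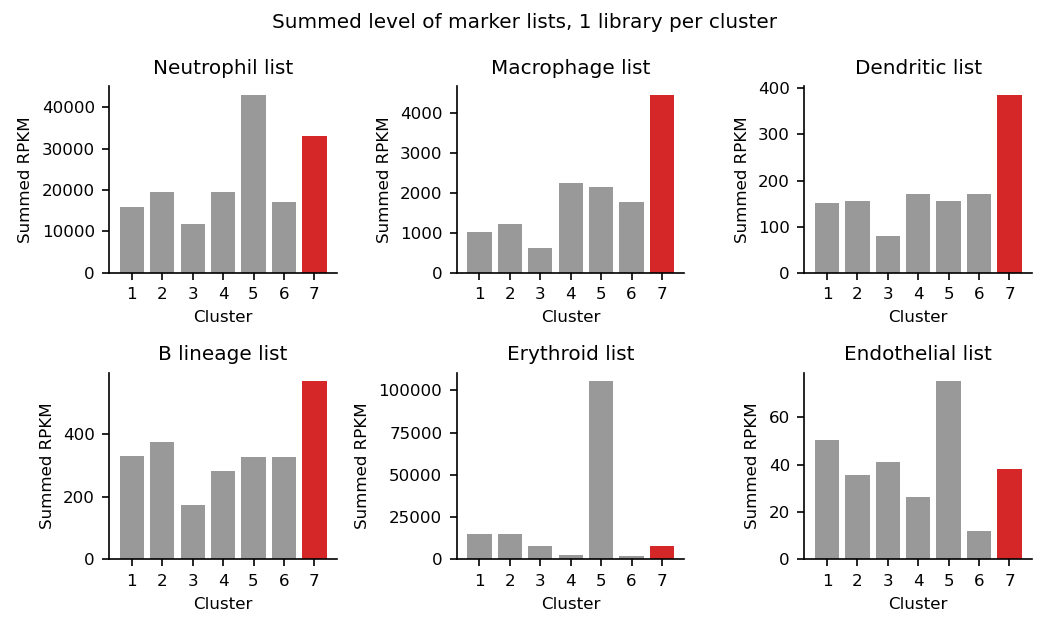
Summed RPKM of the gene lists of other cell types in each of the 7 sorted populations. The neutrophil sum was highest in cluster 5, at 42969, and second in cluster 7, at 32991, the macrophage sum was highest in cluster 7, at 4443, and the erythroid sum was 105399 in cluster 5 and 7471 in cluster 7.

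Immunoglobulin segments stood furthest from the other clusters on the fold scale but were at low counts. Igkv2-112, a kappa variable segment at chr6:68219981-68220706, had 94 counts in cluster 7, 1 count in each of clusters 1, 2, 4, 5 and 6, and 0 in cluster 3. Its level was 7.86 RPKM, and 0.33 RPKM was the highest of the others, in cluster 5. The ratio was 23.7 with a counting interval from 4.15 to 947. Igkv12-41 had 94 counts and Igkv12-89 had 161, with at most 6 and 15 in the others. Near-identical segments of these families share reads, so the split among them is uncertain.

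The kappa variable region, chr6:67555497-70704177 with 214 genes, had 10 genes of 50 or more counts in cluster 7 and between 1 and 4 in each other library. Its summed counts were 628, 939, 396, 892, 1451, 740 and 2024 in clusters 1 to 7. As a share of kept counts, however, cluster 5 was higher, at 0.0173% against 0.00611% in cluster 7. In cluster 5 only 1 gene of the region reached 50 counts, and all named variable segments of the list below held 224 counts there. Most of the 1451 counts of cluster 5 in the region were thus outside the segments of that list. The heavy chain variable region on chromosome 12, with 247 genes, had 1700 counts in cluster 7, or 0.00513%, and the highest other share was 0.0031% in cluster 5. Over a list of 126 named variable segments, of which 7 were described, cluster 7 was highest, with 1728 counts or 0.00521%, against 0.00289% in cluster 6 and 0.00268% (224 counts) in cluster 5.

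Genes of the B lineage beyond the segments were moderately higher. Of 19 described, 12 were highest in cluster 7, 3 over 2-fold above the median cluster and none over 2-fold above every other. Over all genes, 24.1% were highest in cluster 7 and 4.08% over 2-fold above the median cluster. Igkc, the kappa constant region and the most abundant of the list, was 198 RPKM against 56.4 to 102 RPKM, and Ighm, the mu constant region, 169 RPKM against 54.5 to 110 RPKM. The summed RPKM of the list was 332, 376, 173, 284, 327, 325 and 569 in clusters 1 to 7. Jchain, which joins secreted antibody chains, was 7.16 RPKM in cluster 7 and 1.44, 2.01, 1.01, 2.32, 1.81 and 1.37 RPKM in the others, a ratio of 3.09 (interval 2.62 to 3.66) to cluster 4. It was the only 1 of 5 plasma cell genes described that passed the 2-fold limit, and Mzb1 was 10.1 RPKM, below the 12.1 RPKM of cluster 2.

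Among stromal matrix genes, Postn and Thbs2 were over 2-fold above every other cluster, and no gene of the protease, proteoglycan, collagen or adventitial fibroblast lists was. Postn, a matrix protein of periosteum and tendon that binds collagen, was 292 RPKM in cluster 7, against 107, 57.7, 62.4, 87.9, 49.9 and 20.96 RPKM in clusters 1 to 6. It was 2.72-fold (interval 2.68 to 2.77) above cluster 1. Thbs2, which regulates collagen fibres and vessels, was 240 RPKM against 111, 42.8, 58.7, 94.2, 71.3 and 33.8 RPKM, a ratio of 2.17 (interval 2.13 to 2.21) to cluster 1. For both genes cluster 1 was the next highest and cluster 6 the lowest, an order unlike that of the myeloid genes above.

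Other matrix genes were highest in cluster 7 but within 2-fold of the next. Mmp13, a collagenase, was 803 RPKM against 345, 125, 64.8, 338, 408 and 127 RPKM, a ratio of 1.97 to cluster 5. Lum, the proteoglycan lumican, was 2011 RPKM against 447 to 1060 RPKM, and Aspn, asporin, 462 RPKM against 13.8 to 257 RPKM. Itga11, a collagen receptor of fibroblasts, was 38.8 RPKM against 5.58 to 19.4 RPKM. Tnn, tenascin N, a matrix protein of bone surfaces chosen after its values were seen, was 122 RPKM and 70.0 RPKM in cluster 6, with 8.35 to 23.4 RPKM elsewhere. Of 22 genes of proteases and their TIMP inhibitors, 8 were over 2-fold above the median cluster (4.08% of all genes were), with a list median of 0.69. The furthest of them was Mmp9, which is also on the neutrophil list, at 130 RPKM against 8.73 to 85.3 RPKM. Of 19 small leucine-rich proteoglycans and related genes, 7 were, with a list median of 0.80.

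Of the 547 genes above the median cluster, 414 were highest in cluster 7, and the highest other cluster was cluster 4 for 204 and cluster 6 for 145. Complement genes were among them, 13 of 17 described (4.08% of all genes were), at a list median of 1.34. Complement component C7, of the membrane attack complex, was 36.4 RPKM in cluster 7 and 11.4, 0.88, 0.25, 24.9, 1.99 and 0 RPKM in clusters 1 to 6. Clusters 7, 4 and 1 stood together above the rest, with a ratio of 1.46 (interval 1.39 to 1.55) of cluster 7 to cluster 4. Serping1, the inhibitor of C1, was 547 RPKM, between 735 RPKM in cluster 4 and 318 RPKM in cluster 1, against 7.22 to 270 RPKM elsewhere.

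Some fibroblast genes were high in the same 3 clusters. Ccl11, eotaxin, was 54.7 RPKM in cluster 7, 92.3 RPKM in cluster 1 and 48.5 RPKM in cluster 4, against 0.18 to 8.51 RPKM in the other 4. Inmt, a methyltransferase, Abca8a, a transporter, Dpep1, a dipeptidase, and Apod, a lipid carrier, were named after their values were seen, and the first 3 of these had the same pattern. Inmt was 52.8, 50.1 and 83.5 RPKM in clusters 7, 1 and 4 and at most 12.6 RPKM in the others. Apod was 365 RPKM in cluster 7 and 360 RPKM in cluster 4, with 170 RPKM in cluster 1 and 131 RPKM in cluster 5 well below them. Of 24 adventitial fibroblast genes, all described, 5 were over 2-fold above the median cluster and 1 below (4.08% and 1.58% of all genes). The list median was 0.43, beside 0.14 for all genes. Over this list cluster 3 stood with clusters 1, 4 and 7, since the summed RPKM was 16964, 3908, 15558, 17646, 6237, 3865 and 17199 in clusters 1 to 7. Pi16 and Dpt, which mark fibroblasts around vessels, were 11.04 and 144 RPKM in cluster 7, below the 23.1 and 273 RPKM of cluster 4 and the 30.6 and 366 RPKM of cluster 1.

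**Figure D4:**
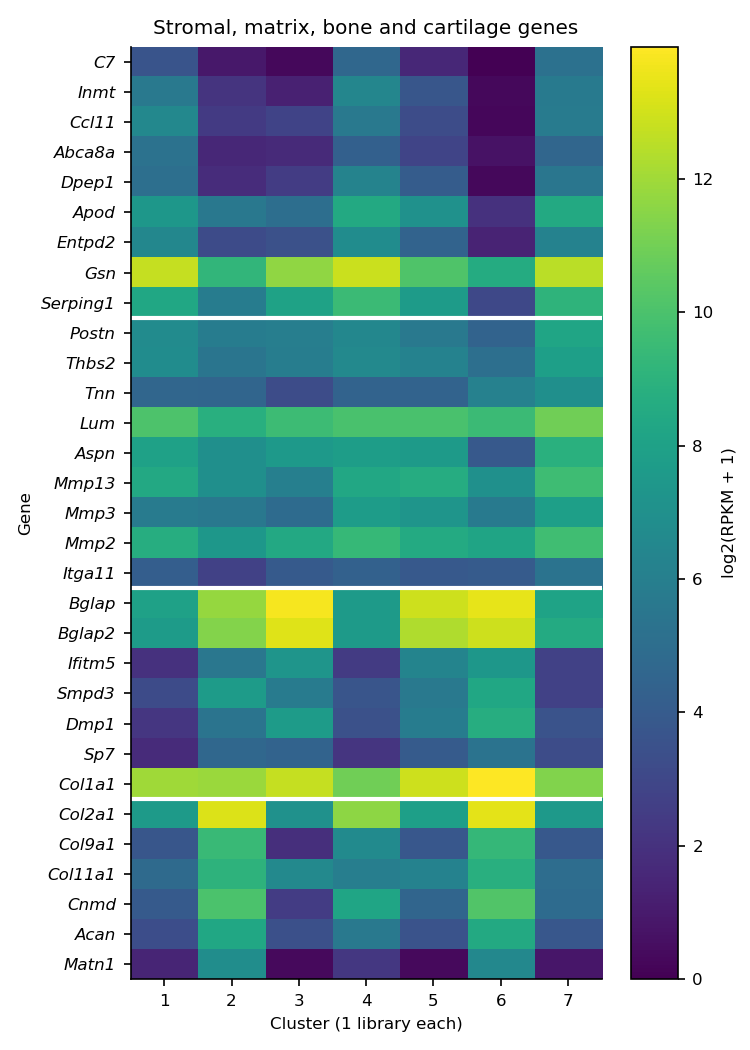
Log2(RPKM + 1) of stromal, matrix and protease, osteoblast and cartilage genes in the 7 sorted populations, with yellow for high and dark blue for low levels. In the top block Ccl11 is 54.7 RPKM in cluster 7 and 92.3 and 48.5 RPKM in clusters 1 and 4, Postn and Thbs2 are highest in cluster 7, and Bglap is 276 RPKM in cluster 7 beside up to 14245 RPKM.

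Osteoblast genes were low in cluster 7. Of 24, 21 were described (Mepe, Phospho1 and Sost were under 50 counts). Of these 21, 10 were over 2-fold below the median cluster and 1, Mmp13, above it (1.58% and 4.08% of all genes). The list median was -0.98. Bglap, osteocalcin, was 276 RPKM, against 259, 3543, 14245, 192, 7821 and 11190 RPKM in clusters 1 to 6. Clusters 1, 4 and 7 were low together, and the other 4 were higher by an order of magnitude or more. Ifitm5, a bone-specific membrane protein, was 5.6 RPKM beside 3.03 and 4.38 RPKM in clusters 1 and 4, and 45.4 to 170 RPKM in the rest. Dmp1, an osteocyte matrix protein, was 10.7 RPKM beside 3.58 and 10.1 RPKM, and 39.97 to 421 RPKM in the rest. Bglap and Bglap2 are near-identical copies, so their split is uncertain. Smpd3, a sphingomyelinase needed for mineralisation, was lowest in cluster 7, at 5.56 RPKM against 8.13 RPKM in cluster 1, a ratio of 0.684 (interval 0.625 to 0.748), but its exons overlap Prmt7 on the other strand, with 707 counts beside 964. Alpl, alkaline phosphatase, and Sp7, osterix, were at 99.7 and 8.44 RPKM, above both clusters 1 and 4.

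Several cartilage genes were lower in cluster 7 than in cluster 4. Of 23 cartilage and tendon genes, all described, 5 were over 2-fold below and 2 above the median cluster (1.58% and 4.08% of all genes). The list median of -0.40 turned to 0.15 without cluster 2 or 6 and 0.22 without cluster 4. Col2a1, the main collagen of cartilage, was 185 RPKM in cluster 7, against 195, 9608, 136, 3077, 233 and 10691 RPKM in clusters 1 to 6. Clusters 2, 4 and 6 were high and clusters 1, 3, 5 and 7 low, without overlap. Cnmd, chondromodulin, followed, at 28.8 RPKM against 292 RPKM in cluster 4, and Col9a1, a collagen on the surface of cartilage fibrils, at 13.5 against 103 RPKM, but without cluster 2, 4 or 6 their differences to the median cluster turned from -1.49 to 0.33 and from -1.40 to 0.045. Acan and Matn1, structural proteins of cartilage matrix, were 12.9 and 0.80 RPKM. Col11a2, which was named after its values were seen, was the lowest of the 7, at 16.5 RPKM against 18.8 to 1124 RPKM.

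Collagens split by type. Of 38 described, 6 were over 2-fold above and 10 below the median cluster (4.08% and 1.58% of all genes). Besides the cartilage types, the low ones included Col1a1, the main collagen of bone, at 2603 RPKM against 1982 RPKM in cluster 4 and up to 16180 RPKM in cluster 6. Those over 2-fold above the median cluster were Col4a5, Col8a2, Col4a6, Col12a1, Col4a1 and Col16a1, of basement membranes, fibril surfaces and vessels. Col4a5, Col4a6 and Col4a1 were higher in another cluster, with differences to the highest other of -0.79, -1.03 and -0.71. Of the 38 collagens, 4 were highest in cluster 7, against 24.1% of all genes. Col12a1 was 61.1 RPKM in cluster 7, against 6.75 to 50.5 RPKM in the others, and Col3a1, the collagen of loose connective tissue, was 3190 RPKM beside 3364 RPKM in cluster 1 and 2630 RPKM in cluster 4.

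The 4 genes over 2-fold below every other cluster were Gm15564, Mir6236, Gm13889 and ENSMUSG00000076281. The minimum of 50 counts in cluster 7 leaves out genes that are low there, and the 4 became 10 with no minimum, 9 without cluster 1 and 19 without cluster 6. Of the 4, Gm15564 had 37.1 RPKM in cluster 7 and 164 to 9872 RPKM in the others. Gm15564 and Mir6236, at 93.9 against 308 to 4176 RPKM, were highest in cluster 5, the library with the largest share of counts at the dropped loci. Of 79 ribosomal protein genes, 77 were described, with a median of -0.82. Of these 77, 20 were over 2-fold below the median cluster and 16 lowest in cluster 7 (1.58% and 4.19% of all genes). Rpl38, of the large subunit, was 90.8 RPKM, against 226, 660, 268, 163, 439 and 150 RPKM in clusters 1 to 6, or 0.606 (interval 0.569 to 0.645) of cluster 6. Summed over the list, RPKM was 5785 in cluster 7 and 5292 in cluster 6, against 9372 to 19576 in the other 5, so clusters 6 and 7 were low together. Copies and pseudogenes of these genes share reads.

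Of 15 mitochondrially encoded genes described, 9 were over 2-fold below the median cluster (1.58% of all genes were), with a median of -1.09. Cluster 7 summed to 4984 RPKM, next to 3208 RPKM in cluster 6 and 5312 RPKM in cluster 4, and cluster 5 to 44985 RPKM. Genes past the limit on both sides were more often short. When the genes were split by length into 4 groups of near equal size, 140 of the 212 genes below the median cluster were in the group of 57 to 2499 bases, or 4.18% of that group, against 0.567% of the group with the longest. The same groups held 197 and 53 of the 547 genes above the median cluster, and in cluster 6, set against its own median of the others, 17.3% of the shortest group lay over 2-fold below. The part of fragment length or library preparation was not tested. All 4 skeletal muscle genes described of 12 were over 2-fold below the median cluster, among them Acta1, skeletal actin, at 1.98 RPKM against 1.01 RPKM in cluster 4 and 77.7 RPKM in cluster 2. Tnni2, a troponin of fast muscle, was the lowest of the 7, at 64 counts and 1.29 RPKM against 2.62 RPKM in cluster 1, a ratio of 0.493 (interval 0.353 to 0.685).

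**Figure D5:**
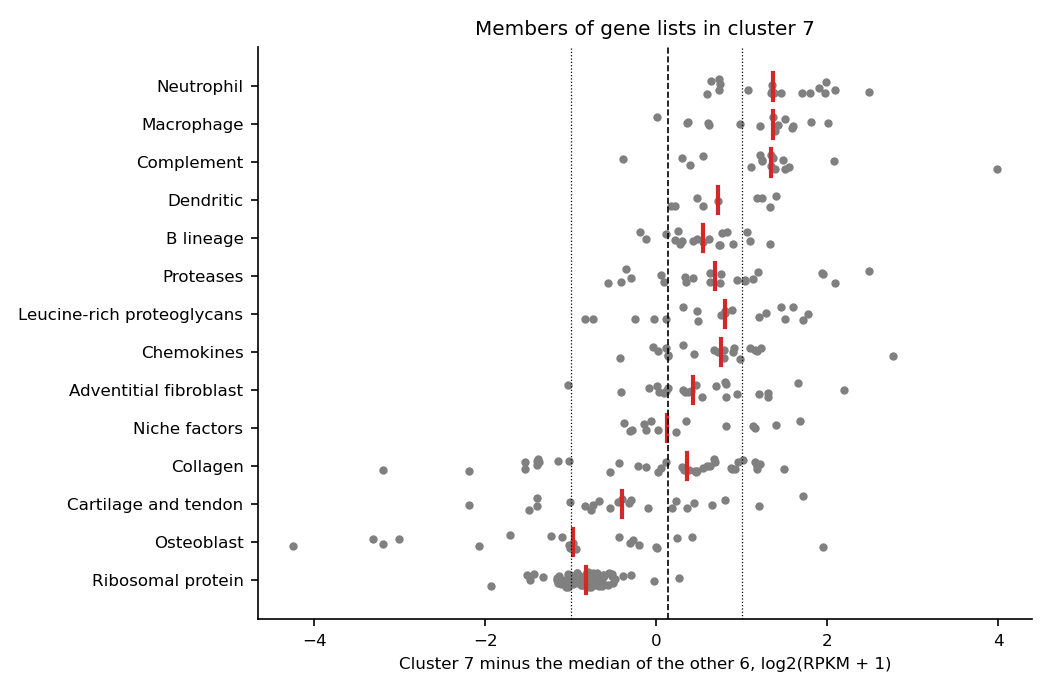
Difference of log2(RPKM + 1) between cluster 7 and the median of clusters 1 to 6 for each member of the gene lists, with red marks for list medians, a dashed line for the median of all genes and dotted lines for 2-fold. The neutrophil, macrophage and complement medians are 1.36, 1.36 and 1.34, and the osteoblast and ribosomal protein medians are -0.98 and -0.82.

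Over whole profiles, cluster 7 was most like cluster 4. Across the 12917 genes with over 2 RPKM in at least 1 cluster, Pearson's r of log2(RPKM + 1) was 0.941, 0.854, 0.914, 0.956, 0.872 and 0.888 with clusters 1 to 6. These are correlations across genes, which are not independent replicates. Against cluster 4, 370 genes (2.76%) were over 2-fold higher in cluster 7 and 184 (1.37%) lower, and against cluster 1, 475 (3.55%) higher and 379 (2.83%) lower. The corresponding shares were 9.59% and 8.3% against cluster 2, 7.77% and 2.84% against cluster 3, 6.44% and 3.99% against cluster 5, and 11.1% and 2.87% against cluster 6. Among those furthest below cluster 4 were cartilage genes such as Cytl1, at 93.2 against 1998 RPKM. Among those furthest above it were Tnn, the muscle growth inhibitor Mstn, at 15.3 against 2.26 RPKM, and Lrrc15, a fibroblast membrane protein, at 24.3 RPKM. Among those furthest above cluster 1 were neutrophil genes, led by Cd177. Chad, a cartilage gene named after its values were seen, was also among them, at 916 against 123 RPKM. Spp1, osteopontin, was there too, at 1302 against 198 RPKM.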

How the data were processed

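The 8 deposited files hold raw counts per gene made by the authors, with gene length, 1 file for each of 7 sorted clusters and an input library. According to the methods, reads were aligned with TopHat2 to mm9 in Partek Flow; the gene coordinates in the file fit GRCm38 (96.2% of 23288 genes within 10000 bases of RefSeq GRCm38.p6), and those are the ones printed. The RNA input and library kit differ between labels and methods.

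After Lars2, mmu-mir-689-2 and ENSMUSG00000098178 were dropped, RPKM was computed from counts, gene length and the remaining total, in Python 3.11.15 with pandas 2.3.3 and scipy 1.17.1. Genes with 50 or more counts in cluster 7 were compared as log2(RPKM + 1), pseudocount 1, with a limit of 2-fold. With 1 library per group no model was fitted. Alternatives were scaling by edgeR 4.0.16 TMM and DESeq2 1.42.0 size factors, a pseudocount of 0.1, other count minimums and leaving out each library. The input was left out.

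The members and gene lists were chosen with earlier results of these data known. Genes named are the 20 furthest above the highest (at 2 or more RPKM in cluster 7) and the 20 furthest below the lowest other cluster, both without immunoglobulin and T cell receptor segments, small RNAs, miRNAs, predicted or RIKEN genes, replication histones and genes without a symbol, up to 6 list members past 2-fold against the median, highest or lowest, the sorting markers, and the most abundant marker of other cell types. Genes outside this rule, chosen after their values were seen, are those said to be so in the text and Acan, Alpl, Camp, Col12a1, Col16a1, Col1a1, Col3a1, Col8a2, Cytl1, Dpt, Gm13889, Gm15564, Ighm, Isg15, Kitl, Lrrc15, Matn1, Mcm5, Mir6236, Mki67, Mstn, Mzb1, Pi16, S100a8, Serping1, Sp7 and Spp1. Scripts were tested on simulated data.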

Additional observations from a re-analysis of the deposited data

Results flagged for a closer look

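The input library, which the comparisons above leave out, held the genes that set cluster 7 apart to different degrees. Ltf was 1081 RPKM in input and 1184 RPKM in cluster 7. Postn was 32.3 RPKM in input and 292 RPKM in cluster 7. Igkv2-112 had 1 count in input, 0.138 RPKM, and 94 counts, 7.86 RPKM, in cluster 7. Of the 70 genes over 2-fold above every other cluster, 41 were higher in input than in cluster 7. Among the 41 were Mmp8 (210 against 193 RPKM), Csf1r (23.2 against 15.1 RPKM) and Cd74 (394 against 213 RPKM). The share of all genes described that were higher in input was not computed, so the 41 cannot be read as a trait of the 70. Cxcr2 and Osm were lower in input, at 9.06 and 52.3 RPKM, as were Thbs2 at 50.9 RPKM and Jchain at 0.138 RPKM.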

How the results depend on the processing

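No paired analysis was possible because there was 1 library per population. Scaling changed the number of genes over 2-fold above every other cluster from 70 to 28 with TMM factors and 23 with DESeq2 size factors, and 22 passed under all 3, among them Cxcr2, Osm, Il1a, Il1b, Ccr1, Mmp8, Postn, Thbs2, Jchain and Igkv2-112, while Ltf, Adam8, Csf1r and Cd74 did not. A pseudocount of 0.1 gave 133 above every other cluster, and 1051 above and 360 below the median cluster. At a limit of 4-fold, 7 were above and 1 below every other, and 35 above and 20 below the median. The 4 genes below every other became 7 with 20 or more counts in cluster 7, 10 with no minimum, 8 with 50 counts in any cluster and 10 with over 2 RPKM in any. The 212 below the median became 132 with 200 or more counts, 437 with no minimum, 343 with 50 counts in any cluster and 433 with over 2 RPKM in any, so that the share of higher among genes past the median limit went from 72.1% to 79.6%, 59.0%, 61.5% and 58.1%, and it was 84.6% with all loci kept. Leaving out clusters 2 and 5 together, chosen after seeing the data, gave 130 below the median. Leaving out 1 library gave 71 to 129 above every other (129 without cluster 6), 4 to 19 below every other (9 without cluster 1, 19 without cluster 6), 460 to 761 above the median and 161 to 279 below it. Leaving out 1 library, the difference to the highest other ran from -1.37 to 0.68 for Apoe (0.68 without cluster 4) and from -1.16 to 0.74 for Kera (0.74 without cluster 1). The difference to the median ran from -3.30 to 0.33 for Cnmd, -2.84 to 0.045 for Col9a1 and -3.17 to 0.088 for Col9a3, above 0 without cluster 2, 4 or 6, and the cartilage list median reached 0.22. Cluster 4 had the highest correlation under the alternatives that change it, which were the pseudocount, the scalings, the loci dropped and the count minimums other than none. The cause of these changes was not tested. With no replicates, no value here has a biological error, and the lower kept total of cluster 5 limits its low genes.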

Other observations

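Of 27 early response genes, all described, 5 were over 2-fold above the median cluster (4.08% of all genes were), none over 2-fold below, and 8 were highest in cluster 7, with a list median of 0.12 beside 0.14 for all genes. Nr4a1, a nuclear receptor induced by stress, was 664 RPKM in cluster 7, 651 RPKM in cluster 4 and 556 RPKM in cluster 1, against 180 to 300 RPKM in the other 4. Zfp36, which destabilises cytokine transcripts, was 588 RPKM against 182 to 509 RPKM.

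Of 26 cell cycle genes, 13 were highest in cluster 7 and none passed 2-fold against the median cluster, with a list median of 0.50. Of all genes described, 24.1% were highest in cluster 7 (17.1% with DESeq2 size factors) and the median was 0.14. Mcm5, of the replication helicase, was 18.5 RPKM against 6.53 to 13.7 RPKM in the others, while Mki67, a marker of dividing cells, was 5.48 RPKM and lay inside their 3.14 to 13.0 RPKM. Of 29 interferon-induced genes described, 13 were also highest in cluster 7 and 5 were over 2-fold above the median cluster (4.08% of all genes were). Among the 5 was Irf7, an interferon regulatory factor, at 9.79 RPKM against 1.89 to 6.30 RPKM. Isg15 was 19.4 RPKM, against 57.9 RPKM in cluster 5.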
